A study of Homo sapiens with 4 samples.

Results

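The facilitative glucose transporters and the hexokinases were compared between 2 hepatocellular carcinoma cell lines, Huh7 and PLC, in medium with 5 mM glucose (low) or 25 mM (high). The 9 genes were chosen by name from the count table, which held 59652 usable genes. They were the 6 transporter genes SLC2A1, SLC2A2, SLC2A3, SLC2A8, SLC2A9 and SLC2A10 and the 3 hexokinase genes HK1, HK2 and HKDC1. Both lines were wild type and grew for 48 h in glucose-free DMEM with fetal bovine serum to which the glucose was added. PLC is named PLC/PRF/5 in the study's methods. Each of the 4 conditions had 1 library of rRNA-depleted RNA, so no difference within a line had a replicate check. The question put to the data was which transporter and which hexokinase each line used, and how the level of each differed between the media.

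Glucose enters liver cells by facilitated diffusion through the GLUT proteins, which the SLC2A genes encode. Hexokinases then phosphorylate it to glucose-6-phosphate, which traps it in the cell and opens glycolysis, the pentose phosphate pathway and glycogen synthesis. Adult hepatocytes rely on GLUT2 (SLC2A2), which has a low affinity for glucose. Liver tumours often carry the high-affinity GLUT1 (SLC2A1) or GLUT3 (SLC2A3) and HK2 instead.

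The data showed a different pair in each line. In Huh7 cells, SLC2A1 and HK2 had the highest levels of the 2 groups of genes, with ratios of 25 mM to 5 mM of 1.25 and 0.855. In PLC cells, SLC2A3 and HKDC1 led in 5 mM, and their reads per total were 0.207 and 0.240 times as many in 25 mM, where SLC2A2 became the leading transporter. All 9 genes passed a test between the lines over both media. In that test 21.8% of all genes tested were called higher in Huh7 cells and 21.1% higher in PLC cells. SLC2A3, SLC2A9 and SLC2A10 had 2 reads or fewer per library in 1 line and passed the count filter through the other line only. Of the 9, SLC2A3 and HKDC1 passed an edgeR test for glucose over all 4 libraries, in which 0.314% of all genes tested were called lower in 25 mM. The SLC2A3 call came from PLC cells alone, since each Huh7 library had 2 reads. HKDC1 had 25 and 17 reads in the Huh7 libraries against 8706 and 1106 in the PLC libraries. Both calls were lost with limma and without the line as a block. With at least 10 counts required in every library, SLC2A3 was not tested and HKDC1 was not called.

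The libraries held 16049686 to 30279716 counted reads, with the fewest in PLC cells in 25 mM. Levels are given as FPKM, the reads of a gene per kilobase of exon, scaled to the counted reads of the library, with an exact Poisson 95% interval. Ratios of 25 mM to 5 mM are ratios of reads over the library total, with an exact (Clopper-Pearson) 95% interval. Both kinds of interval cover counting error only and compare libraries, not conditions. Of the hepatocyte markers, albumin (ALB) had 147932 and 210431 reads in the Huh7 libraries against 5449 and 3980 in the PLC libraries. HNF4A, the master regulator of hepatocyte genes, had between 4535 and 7785 reads in the 4 libraries. TTR and FOXA2 had 4 or fewer reads in the PLC libraries, so the hepatocyte label held less fully for that line. Of the 10 markers of other cell types, the leukocyte marker PTPRC had at most 5 reads and CD3E had 0. The bile duct keratin KRT19 had 1504 and 1680 reads in the Huh7 libraries against 1 and 0 in the PLC libraries. PECAM1 had 392 and 593 reads in the Huh7 libraries against 27 and 36 in the PLC libraries. COL1A2 had 63 and 126 against 0 and 0. CD68, VWF, COL1A1, DES and KRT7 had at most 20 reads in any library. In such bulk RNA, fewer cells that express a gene and less RNA per cell cannot be told apart.

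The sequences just before the starts of the genes that led a library are shown because these genes are the ones the results turn on. They run 5′ to 3′ on the strand of the gene, from the RefSeq promoter windows on GRCh38.p14, with 250 bases before each start and any exon bases at the end removed. Capitals mark 5 motifs searched on both strands, the E-box CACGTG, which MYC and other factors of its class bind, its part ACGTG, which is the core of the hypoxia element, the CCAAT box, the GC box GGGCGG and the TATA box as TATAAA. Every CACGTG also holds ACGTG on both strands. No sequence is shown for SLC2A3.
HK2 first start, chr2:74833877-74834126, plus strand: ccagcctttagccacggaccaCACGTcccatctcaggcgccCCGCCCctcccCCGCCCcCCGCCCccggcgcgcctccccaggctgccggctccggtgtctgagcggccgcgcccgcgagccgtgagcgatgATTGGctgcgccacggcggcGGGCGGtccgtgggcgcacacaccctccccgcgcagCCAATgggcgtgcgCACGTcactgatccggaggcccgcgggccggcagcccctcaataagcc
HK2 second start, chr2:74834920-74835169, plus strand: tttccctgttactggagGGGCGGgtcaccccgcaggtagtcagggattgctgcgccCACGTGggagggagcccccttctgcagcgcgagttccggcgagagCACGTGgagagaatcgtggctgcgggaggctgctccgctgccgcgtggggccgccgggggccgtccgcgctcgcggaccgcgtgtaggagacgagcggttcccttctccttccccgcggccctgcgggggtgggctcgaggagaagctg
HKDC1, chr10:69220082-69220331, plus strand: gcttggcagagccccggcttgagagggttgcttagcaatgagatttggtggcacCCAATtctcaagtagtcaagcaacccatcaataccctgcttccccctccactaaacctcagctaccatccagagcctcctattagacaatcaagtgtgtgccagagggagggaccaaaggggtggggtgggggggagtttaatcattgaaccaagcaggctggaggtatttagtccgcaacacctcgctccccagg
SLC2A1, chr1:42958894-42959118, minus strand: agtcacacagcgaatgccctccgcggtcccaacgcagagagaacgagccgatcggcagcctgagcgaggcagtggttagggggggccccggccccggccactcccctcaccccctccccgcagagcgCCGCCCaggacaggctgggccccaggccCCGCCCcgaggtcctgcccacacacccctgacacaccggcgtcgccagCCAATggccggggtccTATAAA
SLC2A2, chr3:171026744-171026970, minus strand: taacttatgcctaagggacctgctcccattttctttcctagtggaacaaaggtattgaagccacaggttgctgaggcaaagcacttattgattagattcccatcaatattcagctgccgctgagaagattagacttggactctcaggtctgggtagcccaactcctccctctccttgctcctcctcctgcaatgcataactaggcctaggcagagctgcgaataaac

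The windows of the genes that led Huh7 cells were rich in CpG and those of HKDC1 and SLC2A2, which led PLC libraries, were not. The full windows of HK2 held 34 and 29 CpG and that of SLC2A1 held 24, against a median of 11 in all 35116 RefSeq windows. The window of HKDC1 held 3 and that of SLC2A2 held 2. The contrast is of these genes only: SLC2A3 has no window, and HK1, also higher in PLC cells, had from 0 to 30 over 7 starts. The second start of HK2 had 2 copies of CACGTG, and 6.34% of all windows had at least 1 copy. No other window of the 8 genes with an entry had one. The first start of HK2 had ACGTG 2 times, CCAAT 2 times and GGGCGG 4 times. At least 1 copy was held by 18.5% of all windows for ACGTG, 32.0% for CCAAT and 42.6% for GGGCGG. HKDC1 had a single CCAAT. SLC2A1 had TATAAA 1 time (10.7% of windows), at the end of the printed run. These matches describe the letters only, and the 4 libraries carry no measure of binding or methylation at them.

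SLC2A1 encodes GLUT1, the high-affinity transporter of most growing cells, and lies at chr1:42925353-42958893 on the minus strand with 9 merged exons (GRCh38). It had 1442 reads in Huh7 cells in 5 mM and 2537 in 25 mM, against 1586 and 535 in the PLC libraries. As FPKM these were 10.2 (95% interval 9.68 to 10.7), 12.7 (12.3 to 13.3), 7.92 (7.53 to 8.32) and 5.04 (4.62 to 5.49). The lines did not overlap, with both Huh7 libraries above both PLC libraries. The ratio of 25 mM to 5 mM was 1.25 (1.17 to 1.33) for Huh7 and 0.636 (0.576 to 0.702) for PLC, so the lines moved in opposite directions. The study's thresholds were a level above 0.5 FPKM with a ratio above 1.5 or below 0.67. They were applied here with FPKM passing in at least 1 library and with 0.1 added to each FPKM. SLC2A1 was called lower in PLC cells and was not called in Huh7 cells. The PLC call was lost with a pseudocount of 1 and with a ratio under 0.5 required.

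SLC2A2 encodes GLUT2, the low-affinity transporter of the normal liver, at chr3:170996347-171026743 on the minus strand with 11 merged exons. It had 42 and 80 reads in the Huh7 libraries against 2554 and 2263 in the PLC libraries, in 5 mM and 25 mM. Its level was 0.576 FPKM (0.415 to 0.779) and 0.780 (0.618 to 0.970) in Huh7 cells against 24.7 (23.8 to 25.7) and 41.3 (39.7 to 43.1) in PLC cells. The PLC libraries thus stood far above the Huh7 libraries, by 42.9-fold (31.7 to 59.7) in 5 mM and 53.0-fold (42.4 to 67.1) in 25 mM. The ratio of 25 mM to 5 mM was 1.67 (1.58 to 1.77) in PLC cells, past the threshold, and 1.35 (0.920 to 2.02) in Huh7 cells, where the interval holds 1. With TMM scaling the PLC ratio was 1.49 and no longer past the threshold.

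SLC2A3 encodes GLUT3, a transporter of very high affinity best known from neurons, and lies at chr12:7919230-7936187 on the minus strand with 9 merged exons. It had 2 reads in each Huh7 library, 14848 reads in PLC cells in 5 mM and 1629 in 25 mM. The level in PLC cells was 80.8 FPKM (79.5 to 82.1) and then 16.7 (15.9 to 17.6), a ratio of 0.207 (0.197 to 0.218). By FPKM it ranked 354 of 59652 genes in PLC cells in 5 mM and 2791 in 25 mM. The PLC level was 5241-fold (1451 to 43281) the Huh7 level in 5 mM and 1527-fold (422 to 12618) in 25 mM, both resting on the 2 Huh7 reads. Its near-identical relatives stayed low, with 11 to 31 reads for SLC2A14 and 22 to 52 for the pseudogene SLC2A3P4 in the 4 libraries. Of the 5 near-identical copies of the transporters and hexokinases, 0 were called in either line, and neither of the 2 with enough reads passed an edgeR test. Reads that match several of these genes could have been split between them, and how the counting treated them is not given in the sources used here.

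SLC2A8 encodes GLUT8, which sits mostly on membranes inside the cell, at chr9:127397138-127408424 on the plus strand with 11 merged exons. It had 808 and 1048 reads in the Huh7 libraries against 363 and 235 in the PLC libraries. The levels of 9.62 FPKM (8.97 to 10.3) and 8.87 (8.34 to 9.42) in Huh7 cells lay above those of 3.05 (2.75 to 3.38) and 3.73 (3.27 to 4.24) in PLC cells. SLC2A8 stayed near its level in 5 mM, with ratios of 0.922 (0.840 to 1.01) for Huh7 and 1.22 (1.03 to 1.44) for PLC. Neither ratio passed the thresholds.

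SLC2A9 and SLC2A10 were each read in 1 line only beyond single reads. SLC2A9 encodes GLUT9, the urate transporter of liver and kidney, at chr4:9771153-10054936 on the minus strand with 22 merged exons. It had 0 reads in both Huh7 libraries and 176 and 114 reads in PLC cells, or 0.877 FPKM (0.752 to 1.02) and 1.07 (0.884 to 1.29). Against the floor of 3 reads per library, the PLC level was at least 41.4-fold higher in 5 mM and at least 71.2-fold higher in 25 mM. SLC2A9 had a ratio of 25 mM to 5 mM of 1.22 (0.957 to 1.56) in PLC cells, an interval that holds 1.

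SLC2A10 encodes GLUT10, known from arterial tortuosity syndrome, at chr20:46709649-46736347 on the plus strand with 7 merged exons. It had 46 and 129 reads in the Huh7 libraries against 1 and 0 in the PLC libraries. The Huh7 level was 0.445 FPKM (0.326 to 0.593) and 0.886 (0.740 to 1.05), which crosses the limit of 0.5 between the media. SLC2A10 had a ratio of 1.99 (1.41 to 2.85) in Huh7 cells, past the threshold. The call was lost with a pseudocount of 1, with FPKM over 0.5 required in both libraries and with a ratio over 2 required. The Huh7 level was 65.2-fold (11.1 to 2629) the PLC level in 5 mM, from 1 PLC read. In 25 mM it was at least 22.9-fold higher than in PLC cells, against the 3-read floor.

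HK1 is the hexokinase of most tissues and binds mitochondria. It lies at chr10:69269984-69401884 on the plus strand with 29 merged exons. HK1 had 35 and 44 reads in the Huh7 libraries against 434 and 520 in the PLC libraries. The level was 0.260 FPKM (0.181 to 0.362) and 0.232 (0.169 to 0.312) in Huh7 cells, under the limit, and 2.28 (2.07 to 2.50) and 5.15 (4.71 to 5.61) in PLC cells. HK1 was the hexokinase that was higher in 25 mM in PLC cells, with a ratio of 2.26 (1.99 to 2.57), while the Huh7 ratio was 0.893 (0.560 to 1.43). The exons of HK1 shared 49 bases with the pseudogene RPS15AP28, which had 0 reads in all 4 libraries.

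HK2 is the inducible hexokinase of muscle, fat and many tumours. It lies at chr2:74834127-74893359 on the plus strand with 19 merged exons. HK2 had 4018 and 4836 reads in Huh7 cells, 420 in PLC cells in 5 mM and 16 in PLC cells in 25 mM. The level was 31.8 FPKM (30.8 to 32.8) and 27.2 (26.4 to 27.9) in Huh7 cells, against 2.34 (2.12 to 2.58) and 0.168 (0.0963 to 0.274) in PLC cells. The lines did not overlap, and the gap was 13.6-fold (12.3 to 15.0) in 5 mM and 161-fold (99.2 to 282) in 25 mM. HK2 was lower in 25 mM by a small step in Huh7 cells, 0.855 (0.820 to 0.892), and by the largest step of the 9 genes in PLC cells, 0.0719 (0.0407 to 0.118). Its rank in PLC cells went from 11091 to 24612 of the 59652 genes.

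HKDC1 is the most recently described member of the hexokinase family and is known from hepatocellular carcinoma and from glucose tolerance in pregnancy. It lies at chr10:69220332-69267552 on the plus strand with 18 merged exons, and ends 2431 bases before the start of HK1. HKDC1 had 25 and 17 reads in Huh7 cells, 8706 reads in PLC cells in 5 mM and 1106 in 25 mM. The PLC level was 68.1 FPKM (66.7 to 69.5) and then 16.3 (15.4 to 17.3), while the Huh7 level was 0.277 (0.179 to 0.409) and 0.134 (0.0779 to 0.214). The PLC libraries stood 246-fold (166 to 380) and 122-fold (75.8 to 210) above the Huh7 libraries. The ratio of 25 mM to 5 mM was 0.240 (0.225 to 0.255) in PLC cells and 0.483 (0.245 to 0.931) in Huh7 cells, the latter from levels under the limit. HKDC1 and its neighbour HK1 thus lay on opposite sides of 1 in PLC cells.

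The antisense genes AL596223.1 and AL596223.2 overlap HKDC1 and followed the same order of libraries. The gene AL596223.1 shares 0 exon bases with it and had 0, 0, 206 and 14 reads in Huh7 cells in 5 mM and 25 mM and PLC cells in 5 mM and 25 mM. AL596223.2 shares 143 exon bases and had 0, 0, 34 and 4 reads. The libraries kept the strand, but whether the counting used it is not given in the sources used here. If it did not, exon reads of HKDC1 and AL596223.2 cannot be told apart in the 143 shared bases, of the 4223 exon bases of HKDC1.

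**Figure D1:**
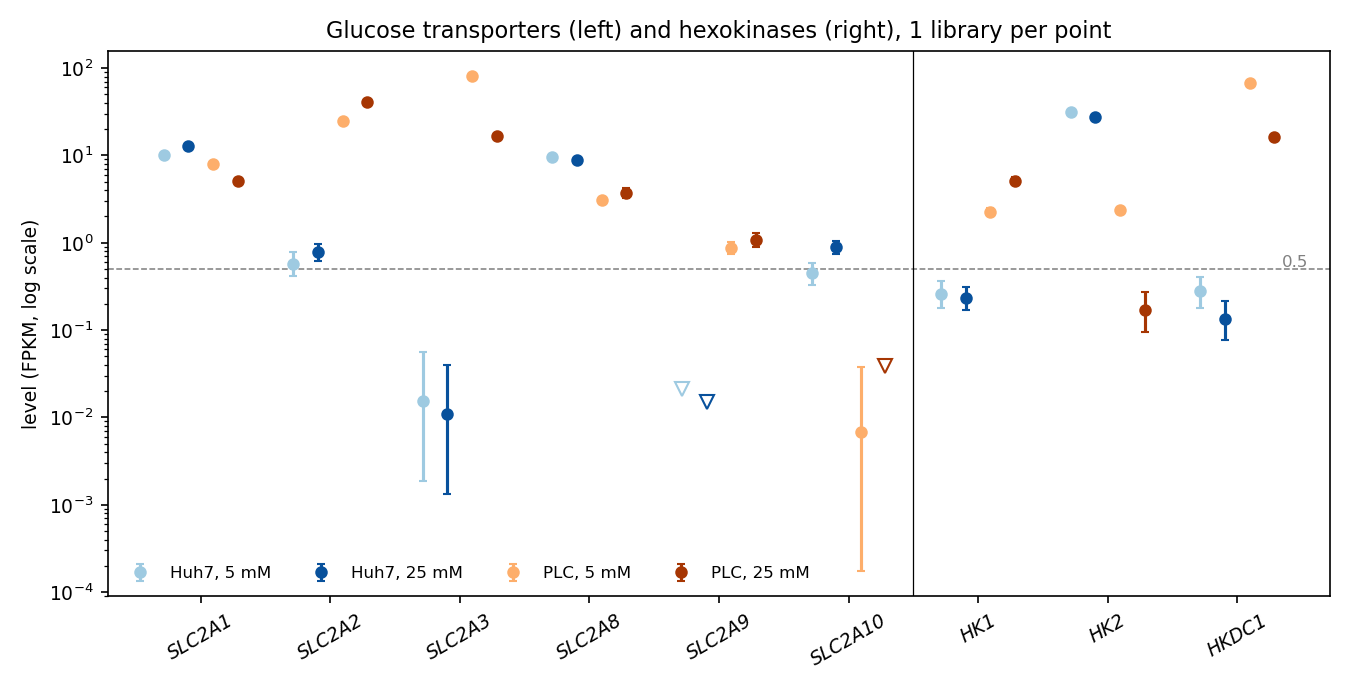
Level of each gene in each library as FPKM on a log scale, with exact Poisson 95% intervals as bars, 1 library per point; open triangles stand at the 3-read floor for libraries with 0 reads, and the dashed line marks 0.5 FPKM. SLC2A3 and HKDC1 lie at 80.8 and 68.1 in PLC cells in 5 mM and at 0.277 or lower in Huh7 cells, while HK2 is at 31.8 and 27.2 in Huh7 cells and at 0.168 in PLC cells in 25 mM.

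The order of the levels differed between the lines and, in PLC cells, between the media. In Huh7 cells HK2 came first in both media, followed by SLC2A1 and SLC2A8, whose intervals overlapped in 5 mM and not in 25 mM. SLC2A2 and SLC2A10 followed with overlapping intervals in both media, as did HKDC1 and HK1 after them. In PLC cells in 5 mM the order was SLC2A3, HKDC1, SLC2A2, SLC2A1 and SLC2A8, each apart from the next beyond counting error, with HK2 and HK1 overlapping in the places after them. In 25 mM SLC2A2 came first, SLC2A3 and HKDC1 had overlapping intervals, and so did HK1 and SLC2A1. HK2 moved to the place before SLC2A10, the last.

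The make-up of the transporter RNA was set out as the share of the summed FPKM of the 14 SLC2A genes in the table, with an exact (Clopper-Pearson) 95% interval of the gene's reads among the family's, carried over to the FPKM scale. SLC2A1 held 23.8% (22.7 to 24.9) in Huh7 cells in 5 mM, hardly above SLC2A6 with 23.7%, SLC2A8 with 22.4% and SLC2A13 with 20.4%. No gene therefore dominated the summed SLC2A RNA of Huh7 cells in 5 mM, while among the 6 listed transporters alone SLC2A1 held 48.9%. In 25 mM the share of SLC2A1 in the family was 32.3% (31.3 to 33.4). In PLC cells SLC2A3 held 62.5% (61.8 to 63.1) in 5 mM and 19.1% (18.2 to 19.9) in 25 mM. The share of SLC2A2 was 19.1% (18.5 to 19.8) and then 47.1% (45.9 to 48.4). The lead thus passed from SLC2A3 to SLC2A2 while the family's sum went from 129 to 87.7 FPKM in PLC cells. In Huh7 cells the sum was 42.9 and 39.5 FPKM, and the 6 transporter genes made up 48.6% and 59.0% of it, against 90.8% and 77.4% in PLC cells.

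The hexokinase RNA was held almost wholly by 1 gene in Huh7 cells and mostly by another in PLC cells. HK2 made up 98.3% (97.8 to 98.7) and 98.6% (98.3 to 99.0) of the summed FPKM of HK1, HK2, HK3 and HKDC1 in Huh7 cells. In PLC cells HKDC1 made up 93.5% (93.1 to 93.9) in 5 mM and 74.7% (72.7 to 76.6) in 25 mM. HK1 made up 3.13% (2.84 to 3.43) and then 23.6% (21.7 to 25.5) there, and HK2 3.22% (2.92 to 3.54) and then 0.771% (0.441 to 1.25). HK1 and HK2 thus held like shares in 5 mM, and HK1 was the second hexokinase of PLC cells in 25 mM. The sum was 0.852 times as high in 25 mM in Huh7 cells, at 32.3 and 27.5 FPKM, and 0.300 times as high in PLC cells, at 72.8 and 21.8 FPKM. HK3, the hexokinase of blood cells, had at most 11 reads in any library.

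**Figure D2:**
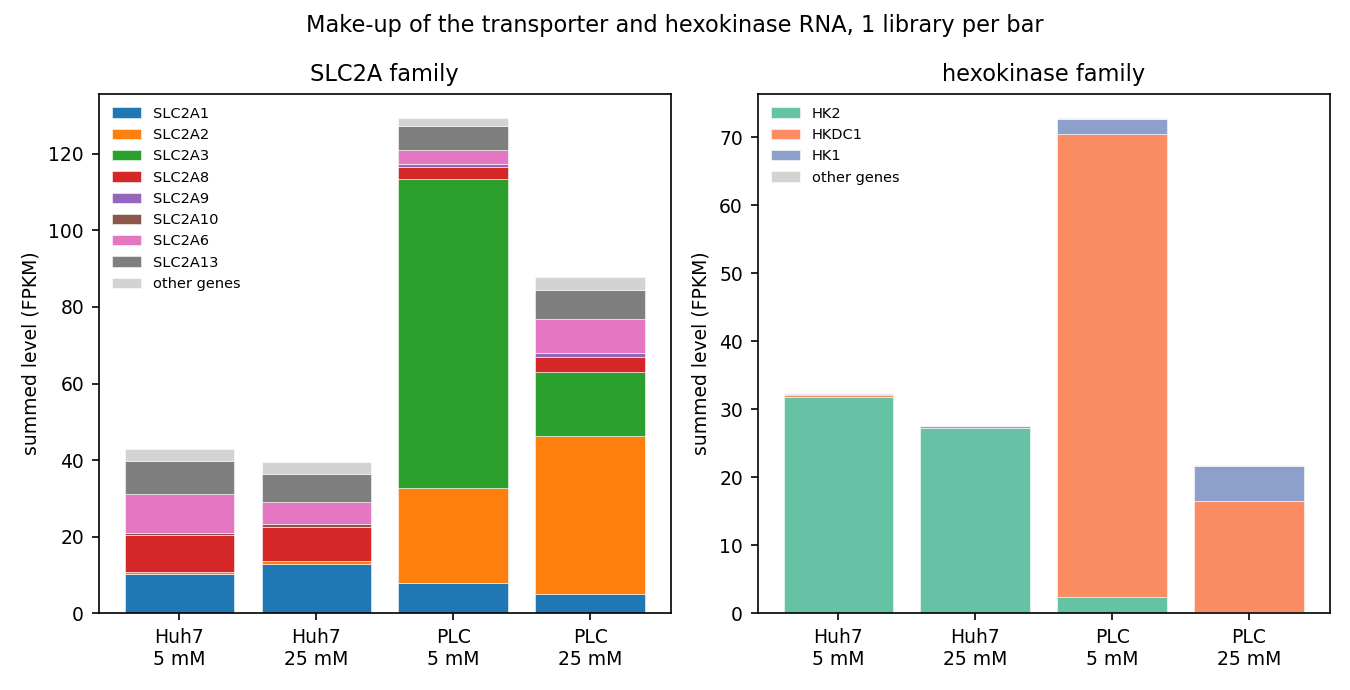
Summed FPKM of the 14 SLC2A genes (left) and of the 4 hexokinase genes HK1, HK2, HK3 and HKDC1 (right) in each library, with the parts of single genes stacked, 1 library per bar and no error bars. The SLC2A3 part of the PLC bars goes from 80.8 to 16.7 FPKM and the HKDC1 part from 68.1 to 16.3, while the Huh7 hexokinase bars are nearly all HK2.

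Within Huh7 cells, 5 of the 9 genes passed the FPKM limit, of which SLC2A10 was called higher in 25 mM and none was called lower. Over all 21864 genes past the limit, 14.1% were called higher and 13.7% lower, and over the 11684 protein-coding genes 5.91% and 5.71%. Within PLC cells, 8 genes passed the limit, of which SLC2A2 and HK1 were called higher and SLC2A1, SLC2A3, HK2 and HKDC1 lower. Over all 21749 genes past the limit in PLC cells, 26.2% were called higher and 17% lower, and over the 11686 protein-coding genes 18.8% and 11.5%. With TMM scaling, which centres the bulk of genes and moves each PLC log2 ratio by -0.16, the PLC shares of all genes were 20.9% higher and 22.5% lower. The median log2 ratio of the genes past the limit, with 0.1 added, was 0.32 for the 5 genes in Huh7 cells against 0.04 for all genes. In PLC cells it was -0.19 for the 8 genes against 0.11 for all genes.

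**Figure D3:**
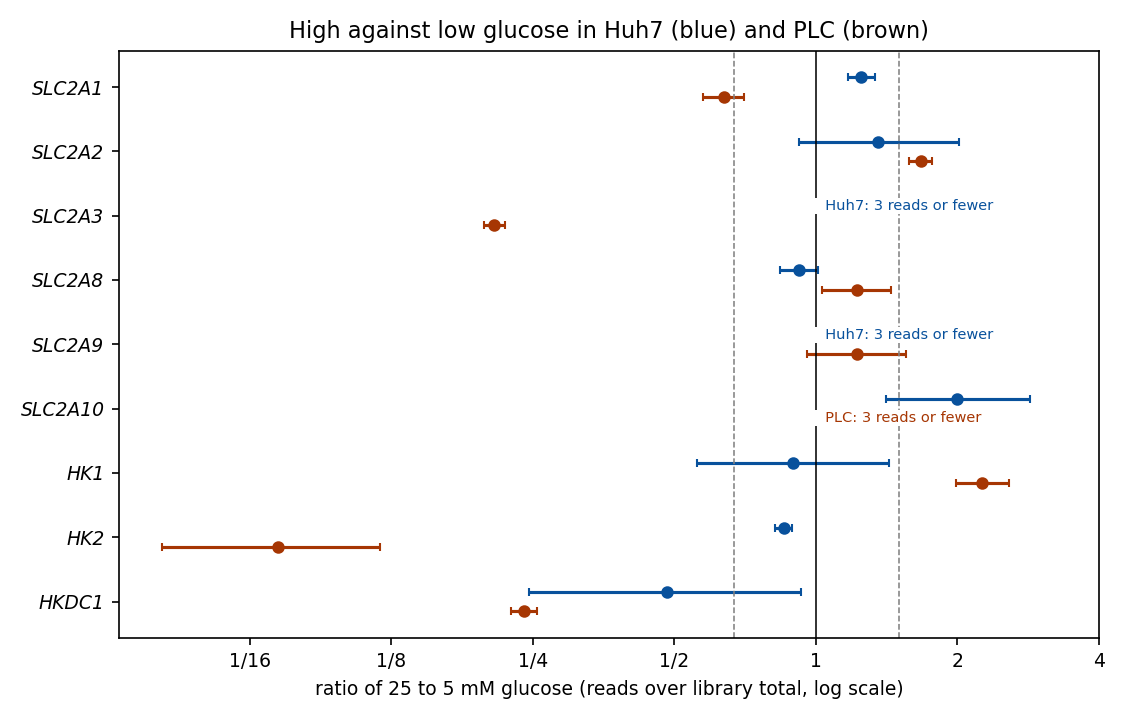
Ratio of 25 mM to 5 mM in reads over the library total for each gene in Huh7 cells (blue) and PLC cells (brown) on a log scale, with exact 95% counting intervals as bars; dashed lines mark 0.67 and 1.5, and genes with 3 reads or fewer in both libraries have no ratio. In PLC cells HK2 is at 0.0719, SLC2A3 at 0.207 and HKDC1 at 0.240, while the Huh7 ratios lie between 0.483 and 1.99.

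The ratios of the 2 lines could be set against each other for 6 genes. The PLC ratio divided by the Huh7 ratio was 0.0840 (0.0475 to 0.138) for HK2 and 0.509 (0.452 to 0.573) for SLC2A1. For HK1 it was 2.53 (1.55 to 4.12) and for SLC2A8 1.33 (1.09 to 1.61). For HK2, SLC2A1 and HK1 the lines differed beyond counting error also with TMM scaling, whereas the SLC2A8 value was then 1.21 (0.994 to 1.46), an interval that holds 1. For SLC2A2 the value was 1.24 (0.826 to 1.83), an interval that holds 1. For HKDC1 it was 0.496 (0.257 to 0.982), from 25 and 17 reads in Huh7 cells. These intervals cover counting error only, and with 1 library per condition a difference in the response of the lines could not be tested.

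**Figure D4:**
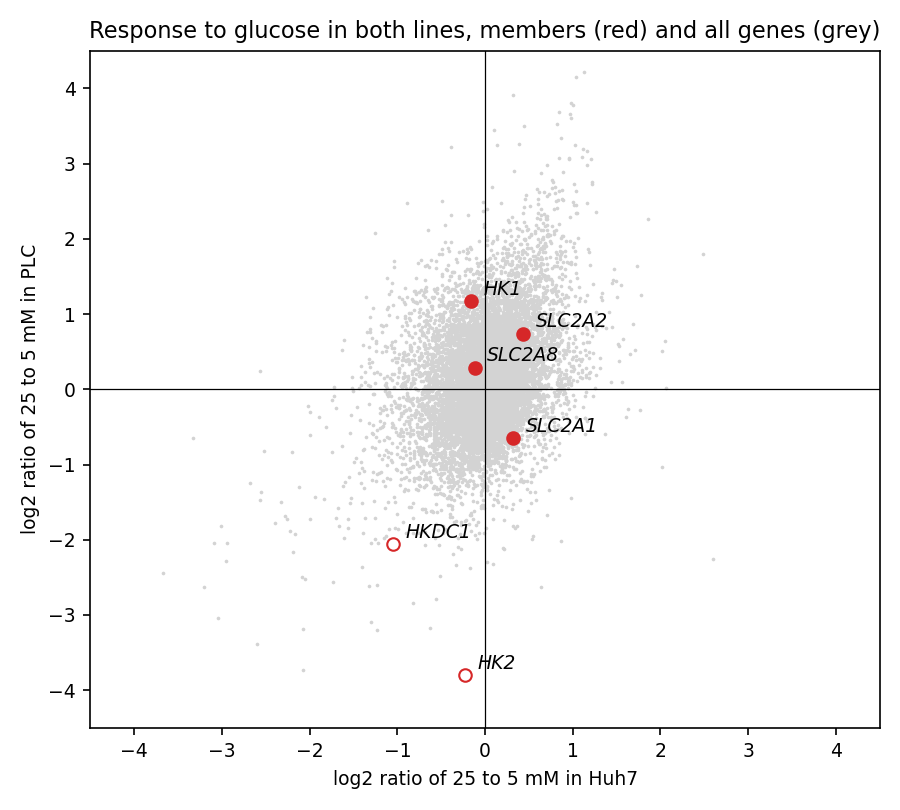
Log2 ratio of 25 mM to 5 mM in Huh7 cells (x axis) against PLC cells (y axis) for the 6 genes with a ratio in both lines (red, open where a library had under 20 reads) and for the 13752 genes with at least 20 reads in every library (grey, 1 of them beyond the axes). On the PLC axis HK2 lies at -3.80 and HKDC1 at -2.06. Each had a library under 20 reads and so would not pass the filter of the grey genes. SLC2A1 lies below 0 in PLC cells and above 0 in Huh7 cells.

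For a difference between the media over both lines, edgeR's quasi-likelihood test was run on all 4 libraries with the line as a block, which leaves 1 residual degree of freedom. The lines are not replicate cultures. The residual is the difference of the glucose response between the lines, and its variance is drawn towards that of other genes. The p-values thus do not measure the spread between cultures of a condition. SLC2A3 fell in 25 mM by 2.30 on the log2 scale (SE 0.33, edgeR adjusted p = 0.00940), and HKDC1 fell by 1.87 (SE 0.31, edgeR adjusted p = 0.0206). Over all 23217 genes tested, 73 were called lower in 25 mM and 15 higher. The SLC2A3 call rested on PLC cells, as Huh7 cells had 2 reads in each medium. HKDC1 was lower in 25 mM in both lines, but its Huh7 levels, from 25 and 17 reads, were under the FPKM limit. For HK2 the log2 difference was -1.64 (SE 0.56, edgeR adjusted p = 0.344), lower in both lines but by unequal steps. For the other 6 genes the edgeR adjusted p was 0.618 or above. None of the 9 was called without the block. With at least 10 counts required in every library, 6 of the 9 were tested, SLC2A3 not among them, and none was called. Both calls were also lost with limma, where the adjusted p was 0.417 for SLC2A3 and 0.187 for HKDC1, and over the alternatives it ran from 2.76e-08 to 1.0 and from 1.03e-06 to 1.0.

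Between the lines, all 9 genes passed the same edgeR test with the medium as a covariate. With 1 library per condition, these p-values too do not measure the spread between cultures of a condition. SLC2A3, SLC2A9 and SLC2A10 had 2 reads or fewer per library in 1 line and passed the count filter only through the other line. Their calls thus add nothing to their read counts. Of the 9 genes, SLC2A1, SLC2A8, SLC2A10 and HK2 were higher in Huh7 cells and SLC2A2, SLC2A3, SLC2A9, HK1 and HKDC1 in PLC cells. The log2 difference of Huh7 minus PLC was 5.13 for HK2 (SE 0.61, edgeR adjusted p = 1.75e-05) and -7.51 for HKDC1 (SE 0.36, edgeR adjusted p = 5.37e-09). Among the transporters it was -5.59 for SLC2A2 (SE 0.29, edgeR adjusted p = 1.17e-08). For SLC2A3 it was -11.70, a size that rests on 2 reads in each Huh7 library. The smallest difference was that of SLC2A1, 0.84 (SE 0.28, edgeR adjusted p = 0.0261), which missed the threshold with DESeq2 at an adjusted p of 0.0715 and ranged from 0.00710 to 0.0787 over the alternatives. For SLC2A9, with 0 reads in Huh7 cells, the size is given above as a bound.

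In the list of other sugar transporters, SLC2A6 and SLC2A13 had the highest levels. Of the 11 genes of this list, 4 passed the FPKM limit in Huh7 cells, with 0 called higher and 1 lower, and 5 in PLC cells, with 3 higher and 0 lower. SLC2A6, which encodes the lysosomal GLUT6, was past the thresholds in both lines and in opposite directions, with ratios of 0.575 (0.516 to 0.639) for Huh7 and 2.48 (2.17 to 2.84) for PLC. Of the 7 other genes of glucose phosphorylation and dephosphorylation, 4 passed the limit in Huh7 cells, with 1 called lower. In PLC cells 5 passed it, with 2 called higher and 1 lower. GCKR, a regulatory protein of the liver, was the one called lower in each line, at 0.554 (0.478 to 0.641) and 0.529 (0.438 to 0.636). In PLC cells G6PC, the phosphatase that releases free glucose, was at 3.41 (2.36 to 4.98) and SLC37A4, its glucose-6-phosphate transporter, at 4.43 (3.94 to 4.99).

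The genes that act on the transporters and hexokinases were counted against the same thresholds, which call the shares of protein-coding genes given above. Of 10 genes of transporter trafficking and turnover, 1 was called higher in each line and 0 lower. TXNIP, which promotes the uptake of GLUT1 from the cell surface and is a known glucose-responsive gene, was the one in Huh7 cells, with 8 and 439 reads and a ratio of 39.0 (19.6 to 90.9). In PLC cells TXNIP had 26 and 18 reads, under the limit. Of the 5 genes of hexokinase docking and control, the Huh7 cells had 0 called, and the PLC cells 1 in each direction. Of the 11 transcription factors of glucose, hypoxia and liver, the Huh7 cells had 0 called higher and 2 lower, and the PLC cells 1 in each direction. MYC, which activates SLC2A1 and HK2 in many cells, was lower in both, at 0.632 (0.601 to 0.663) and 0.544 (0.509 to 0.582). HIF1A, the hypoxia factor with the same targets, was at 0.804 (0.783 to 0.826) and 0.834 (0.800 to 0.869), inside the thresholds.

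Of the 17 enzymes of glycolysis after hexokinase, 14 passed the FPKM limit in Huh7 cells, with 1 called in each direction. In PLC cells 15 passed it, with 4 called higher and 1 lower. Of all protein-coding genes past the limit, 5.91% were called higher and 5.71% lower in Huh7 cells. In PLC cells these shares were 18.8% and 11.5%. Pyruvate kinase of the liver, PKLR, was among those higher in PLC cells at 3.14 (2.72 to 3.62), as was phosphofructokinase of the liver, PFKL, at 2.22 (2.10 to 2.35). PFKP, the platelet form of phosphofructokinase, was the one lower in PLC cells at 0.455 (0.352 to 0.582). Of the 11 hepatocyte markers, 11 passed the limit in Huh7 cells, with 2 called higher, and 9 in PLC cells, with 4 called higher. In either line 0 were called lower. APOA1 was past the thresholds in both lines, at 1.52 (1.41 to 1.63) and 3.77 (2.31 to 6.29). In PLC cells the liver transporter SLC2A2 was thus higher beside 4 hepatocyte markers, whose part in its ratio was not tested. Of the 10 markers of other cell types, 0 were called in either line. No gene of these lists outside the 9 passed the edgeR test for glucose.

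Several listed genes that control glucose use also differed between the lines. Over all 23217 genes tested, 21.8% were called higher in Huh7 cells and 21.1% higher in PLC cells. PKLR had 12 and 10 reads in the Huh7 libraries against 308 and 512 in the PLC libraries, a log2 difference of Huh7 minus PLC of -5.44 (SE 0.53, edgeR adjusted p = 3.17e-06). G6PC had 4 and 7 reads in the Huh7 libraries against 47 and 85 in the PLC libraries. MLXIPL, the carbohydrate response factor ChREBP, had 762 and 801 reads in the Huh7 libraries against 38 and 44 in the PLC libraries, a log2 difference of 4.05 (SE 0.40, edgeR adjusted p = 3.55e-06). Of the 11 hepatocyte markers, 10 were called higher in Huh7 cells, whereas SLC2A2 was higher in PLC cells. Among the markers of other cell types, 4 of 10 could be tested, and all 4 (KRT19, PECAM1, COL1A1 and COL1A2) were higher in Huh7 cells. Their part in the differences of the transporters and hexokinases between the lines was not tested. Of the 17 enzymes of glycolysis after hexokinase, 6 were called higher in Huh7 cells and 5 higher in PLC cells, and of the 10 trafficking genes 1 and 5. Of the 6 other sugar transporters tested, 1 was called in each direction, and of the 5 docking genes 1 and 0. The 11 transcription factors had 7 and 1, and the 5 tested of the other genes of glucose phosphorylation and dephosphorylation 0 and 1.

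The genes nearest in pattern to the leading transporter and the leading hexokinase by mean level, SLC2A3 and HKDC1, were the same 3. They were found among the 9779 genes with at least 100 reads in every library by the Euclidean distance of log2 CPM centred over the 4 libraries. For HKDC1 the distances were 1.59 to SPP1, 1.79 to CPS1 and 1.80 to AKAP12, and for SLC2A3 they were 3.39 to CPS1, 4.81 to SPP1 and 5.13 to AKAP12. These genes shared the difference between the lines and not the size of the step between the media in PLC cells. CPS1, the first enzyme of the urea cycle, had 392 and 358 FPKM in PLC cells in 5 mM and 25 mM. SPP1, which encodes osteopontin, had 454 and 402 FPKM there, and AKAP12, a scaffold of protein kinase A, had 186 and 136 FPKM. The minimum of 100 reads leaves out genes that are as near to 0 in Huh7 cells as SLC2A3 and HKDC1.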

How the data were processed

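Huh7 and PLC cells gave 1 library per line and glucose level. Ribosomal RNA was removed and directional libraries were built. The authors deposited raw counts of reads per gene, and the submitters' processing notes name HISAT2, featureCounts and hg38, with versions not given in the sources used here. Of 59657 lines, 5 from a broken ANK2 entry were left out, which left 59652 genes. The libraries held 16049686 to 30279716 reads. FPKM was computed here from the counts, the exon length in the table and the library total, and the study's thresholds were applied. Adding 0.1 to FPKM and asking for FPKM over 0.5 in at least 1 of the pair were choices made here.

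Between lines and between media, counts were tested in edgeR 4.0.16 (quasi-likelihood test, filterByExpr, TMM, Benjamini-Hochberg, model line plus glucose, R 4.3.3), which was tested on simulated data. The SE of an edgeR log2 difference is its absolute size divided by the square root of the F statistic of the test. No test was possible within a line. Alternatives were TMM and DESeq2 1.42.0 scaling, pseudocount 1, other FPKM and count filters, ratios over 2, limma 3.58.1 and no block. TMM and DESeq2 scaling of the ratio of PLC over Huh7 was added after seeing the data. Positions are from the table and matched GENCODE 44 for chromosome and strand in 9 of 9 genes, and for start and end in 8. Promoter sequences are from RefSeq (GRCh38.p14), matched by symbol for 8 of 9 genes, and the motifs were chosen with the sequences in view. The 9 genes, the gene lists (other sugar transporters, glucose phosphorylation and dephosphorylation, trafficking, docking, transcription factors, glycolysis, hepatocyte and other cell type markers, near-identical copies) and the tests were chosen with earlier results of these data known. Named genes were all 9, listed genes past the thresholds in both lines, listed genes called by edgeR, overlapping genes and the 3 genes nearest in pattern to the leading transporter and hexokinase. Only some of the listed genes called between the lines are named, and TXNIP, G6PC, SLC37A4, PKLR, PFKL, PFKP and HIF1A were named after their values were seen. Some genes of the lists are not reported here, and hexokinase shares were taken over HK1, HK2, HK3 and HKDC1.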

Additional observations from a re-analysis of the deposited data

Results flagged for a closer look

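SLC2A1 moved in opposite directions in the lines, with more reads per total in 25 mM in Huh7 cells (ratio 1.25, 1.17 to 1.33) and fewer in PLC cells (0.636, 0.576 to 0.702). The PLC ratio was 0.509 times the Huh7 ratio (0.452 to 0.573, counting error only). The difference was not tested, since 1 library per condition leaves no spread to test an interaction against.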

How the results depend on the processing

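With 1 library per condition, no replicate could be left out, and 16049686 reads in PLC cells in 25 mM set the coarsest floor, 0.187 CPM. In Huh7 cells the count of 1 gene past the thresholds became 0 with a pseudocount of 1, with FPKM over 0.5 in both libraries and with ratios over 2, and 2 (SLC2A10 and HKDC1) without the FPKM filter. In PLC cells the count of 6 stayed between 4 and 6. SLC2A2 was lost with TMM scaling, SLC2A1 with a pseudocount of 1 and HK2 with FPKM over 0.5 in both libraries. Both SLC2A1 and SLC2A2 were lost with ratios over 2 or under 0.5. The 2 glucose calls of edgeR became 0 with at least 10 counts in every library, which drops SLC2A3 and leaves HKDC1 at an adjusted p of 0.0634, with limma, and without the replicate block, the cell line; the cause was not tested for limma and for the block. HK2 was called for glucose without the filter on low counts (adjusted p = 1.24e-05, over all alternatives up to 1.0). The 9 calls between the lines became 8 with DESeq2 and without the replicate block, where SLC2A1 was lost, and 6 of 6 tested with at least 10 counts. Over all genes, the 88 glucose calls became 526 without a filter, 194 with DESeq2, 27 with at least 10 counts, 21 with limma and 0 without the block (edgeR, 52 at an unadjusted p under 0.05), and the 9969 calls between the lines became 6340 with at least 10 counts. By CPM in place of FPKM, the share of the leading transporter was 26.6% (SLC2A1, behind SLC2A13) and 35.3% for Huh7 against 66.6% and 33.2% for PLC, and of the leading hexokinase 91.0% and 66.9% in PLC cells. Among the 6 listed transporters only, the transporter shares were 48.9%, 54.7%, 68.8% and 60.9%. The glucose difference of SLC2A8, 0.00 on the log2 scale, was -0.01 without the filter and -0.07 without the block, and no other log2 difference or ratio of the 9 genes changed direction.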
